A study of Homo sapiens with 6 samples.

Results

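Notch receptors, their ligands and the genes they are known to switch on were followed in HDQ-P1 cells with and without Y-320. The 10 genes described here are the receptors NOTCH1, NOTCH2 and NOTCH3, the ligands JAG1, JAG2 and DLL1, and the target genes HES1, HES4, HEY1 and NRARP. They were taken by name, and all 10 were found among the 40295 rows of the deposited table, of which 35390 could be matched to a gene symbol. HDQ-P1 is an established human breast cancer cell line. Y-320 is the small molecule tested there as an enhancer of premature termination codon readthrough by aminoglycosides. The dataset holds RNA sequencing (RNA-seq) libraries of 3 replicates labelled untreated and of 3 that received Y-320 (1 μM) over 48 h, and no readthrough aminoglycoside is listed among the treatments. All libraries come from the same line, which grew in medium with an antibiotic-antimycotic supplement. No solvent is mentioned for the untreated group, and the labels do not say whether replicates were grown separately. The p-values therefore measure the spread between these libraries, which may be technical.

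Notch proteins are receptors in the plasma membrane that are activated by ligands on a neighbouring cell. Binding exposes the receptor to cleavage by an ADAM protease and then by the γ-secretase complex, which frees the intracellular part. This fragment enters the nucleus, joins the DNA-binding protein RBPJ and a Mastermind protein, and turns on genes that include the HES and HEY repressors and the feedback inhibitor NRARP. In the mammary gland the pathway takes part in the choice between luminal and basal fates, and its receptors and ligands are often expressed in breast cancer.

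The libraries held 21045401 to 22740535 estimated counts, and 1 count was worth 0.0440 to 0.0475 CPM, the count scaled to a library of fixed size. Mitochondrial genes took 1.65% to 1.78% of the counts, with overlapping ranges between the groups. The label of an epithelial cancer line was checked against its markers. All 6 epithelial markers (EPCAM, CDH1, KRT7, KRT8, KRT18 and KRT19) were abundant, with a summed level of 10916 to 11425 CPM in untreated cells and 6834 to 6895 CPM after Y-320. Levels below are CPM after TMM scaling of the library sizes, and changes are log2 fold changes of treated over untreated cells from edgeR's quasi-likelihood test across 16580 genes, with Benjamini-Hochberg adjusted p-values and a threshold of 0.05. SE is the standard error.

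Most of the Notch genes that could be tested were higher in cells treated with Y-320, led by the receptor NOTCH3 among the abundant ones. Of the 10 genes, 7 were higher past the threshold (HEY1, NOTCH3, JAG1, HES1, HES4, NOTCH1 and JAG2), NOTCH2 and NRARP were tested and did not pass, and DLL1 was removed by the filter on low counts. No member was lower past the threshold. Among all genes tested, 26.2% were higher and 25.4% were lower, together 51.5%, so a large share of the transcriptome passed the same test. The median log2 fold change of the 9 tested members was 0.40, beside 0.000972 over all genes tested. HEY1 passed the filter only through its treated libraries, so it had to be higher to be counted, and the median includes it. In the same 7 genes the lowest treated library exceeded the highest untreated one, an order that 29.8% of the genes tested showed (59.2% had groups that did not overlap in either direction).

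**Figure D1:**
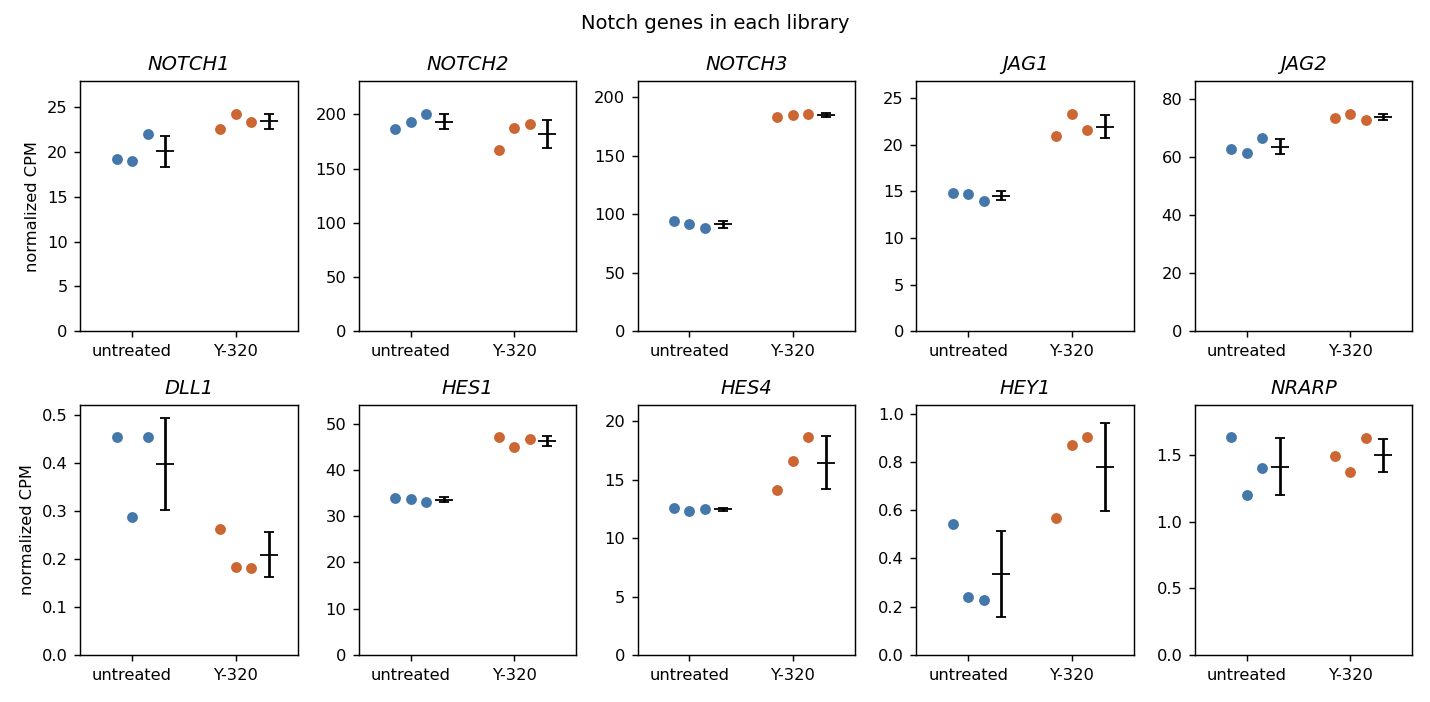
Normalized CPM (vertical axes, each from 0) of the 10 Notch genes in the untreated (blue) and Y-320 (orange) libraries; points are libraries and the black marks give mean ± SD of 3. NOTCH3 sits at 88.3 to 93.9 CPM untreated and 183 to 186 CPM after Y-320, while NOTCH2 and NRARP overlap between the groups.

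The receptors differed in their response. NOTCH3 (ENSG00000074181, chromosome 19 from 15159038 to 15200995, minus strand, hg38) had 93.9, 91.6 and 88.3 CPM in untreated replicates 1, 2 and 3 and 183, 185 and 186 CPM in Y-320 replicates 1, 2 and 3. The treated libraries were all far above the untreated ones and close to each other. The log2 fold change was 1.02 (SE 0.029, adjusted p = 2.40e-09), a 2.02-fold higher level, with a 95% interval from 0.95 to 1.08. It ranged from 0.99 to 1.04 on the log2 scale with each library left out, and 97.4% of all genes tested had a lower or equal value. Of the 31-base words in NOTCH3 transcripts, 1.75% occur in another gene, so few of its reads could have been shared.

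NOTCH1 (ENSG00000148400, chromosome 9 from 136494433 to 136546048, minus strand) is the receptor best known from leukaemia and development. It had 19.3, 19.0 and 22.1 CPM untreated and 22.6, 24.3 and 23.4 CPM after Y-320. The groups did not overlap, but the gap between untreated replicate 3 and Y-320 replicate 1 was narrow. The log2 fold change was 0.22 (SE 0.065, adjusted p = 0.0159). This call did not hold without untreated replicate 1 (0.19, adjusted p = 0.0598), without untreated replicate 2 (0.18, adjusted p = 0.0649) or without Y-320 replicate 2 (0.19, adjusted p = 0.0596). NOTCH2 (ENSG00000134250, chromosome 1 from 119911553 to 120100779, minus strand) had 187, 193 and 201 CPM untreated and 167, 188 and 191 CPM after Y-320. Its groups overlapped, and the log2 fold change of -0.09 (SE 0.048, adjusted p = 0.151) has a 95% interval from -0.20 to 0.02. About 11% of its 31-base words are shared with other genes, mainly with copies of its first exons on the same chromosome. The row of NOTCH2NLA, such a copy, had a log2 fold change of 0.06 (adjusted p = 0.673), and NOTCH2 summed with it gave -0.08 (adjusted p = 0.237).

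**Figure D2:**
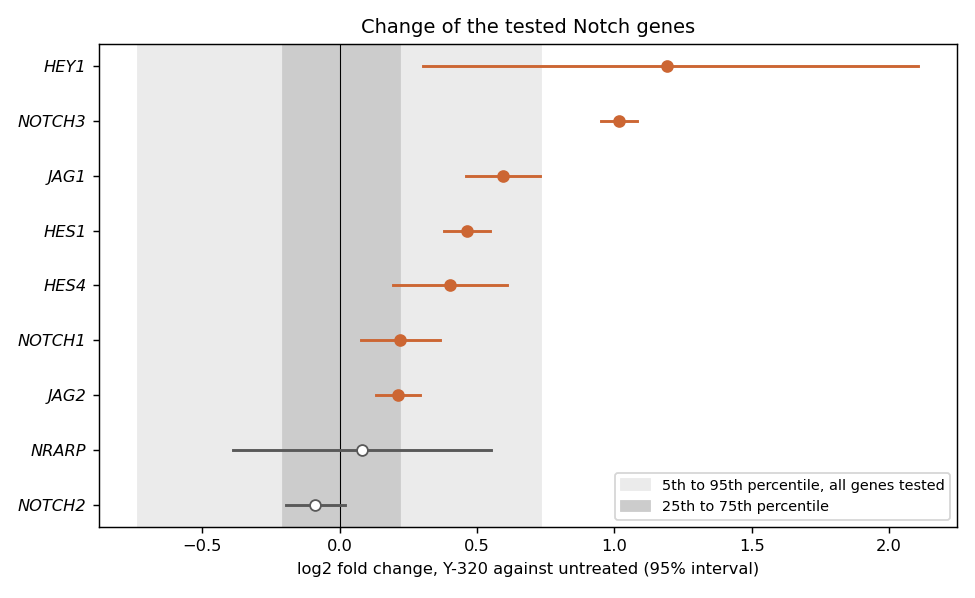
Log2 fold change of the 9 tested Notch genes (horizontal axis, Y-320 against untreated) with 95% intervals from edgeR; filled orange points passed an adjusted p of 0.05, open points did not, and grey bands give the spread of all genes tested. NOTCH3 at 1.02 has a narrow interval and HEY1 at 1.19 a wide one from 0.30 to 2.11.

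Both Jagged ligands rose and the Delta ligand was near the limit of detection. JAG1 (ENSG00000101384, chromosome 20 from 10637684 to 10673999, minus strand), a membrane ligand used in many epithelia, had 14.9, 14.8 and 14.0 CPM untreated and 20.97, 23.3 and 21.6 CPM after Y-320. All treated libraries were well above all untreated ones. The log2 fold change was 0.60 (SE 0.060, adjusted p = 1.58e-05), a 1.51-fold higher level, and it stayed between 0.55 and 0.63 with each library left out. JAG2 (ENSG00000184916, chromosome 14 from 105140982 to 105168824, minus strand) had 62.6, 61.4 and 66.3 CPM untreated and 73.4, 74.8 and 72.7 CPM after Y-320. The treated libraries again lay above the untreated ones, by a smaller step. Its log2 fold change was 0.21 (SE 0.036, adjusted p = 0.000595). DLL1 (ENSG00000198719, chromosome 6 from 170282206 to 170306565, minus strand) had 9.5, 5.5 and 10 estimated counts in untreated cells against 5.5, 3.5 and 4 in treated cells. The filter removed it, and in a fit without the filter its log2 fold change was -0.91 (SE 0.50, adjusted p = 0.200). A second row that matched no gene symbol holds the same values within 0.01 counts in every library. With both rows summed, an alternative chosen after seeing the data, the counts were 19, 11 and 20 untreated and 11, 7 and 8 after Y-320, and the log2 fold change was -0.97 (SE 0.35, adjusted p = 0.0356). In that form DLL1 passed the filter only through its untreated libraries.

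The target genes HES1 and HES4 rose by similar amounts. HES1 encodes a basic helix-loop-helix repressor and is the most widely used readout of Notch signalling. The 250 bases before its start are shown with HES4 and NOTCH3. RBPJ is known to bind the core motif TGGGAA, here also searched with its preferred preceding bases. These 3 genes were picked with their changes known, and NRARP, a target without this motif, is not shown. The sequences are RefSeq promoters on GRCh38.p14, read on the strand of the gene, 8 of the 10 genes had an entry, and DLL1 and HEY1 had none. They cover chr3:194135898-194136147 on the plus strand for HES1, chr1:1000098-1000347 on the minus strand for HES4 and chr19:15200996-15201245 on the minus strand for NOTCH3. Capitals mark the RBPJ motif in HES1 and HES4, and in NOTCH3 the GC box GGGCGG.
HES1: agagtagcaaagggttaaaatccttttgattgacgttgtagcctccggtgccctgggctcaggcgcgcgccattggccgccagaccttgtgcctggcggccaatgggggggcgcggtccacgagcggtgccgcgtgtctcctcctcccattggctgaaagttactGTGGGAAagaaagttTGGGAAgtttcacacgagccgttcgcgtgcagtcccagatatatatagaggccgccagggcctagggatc
HES4: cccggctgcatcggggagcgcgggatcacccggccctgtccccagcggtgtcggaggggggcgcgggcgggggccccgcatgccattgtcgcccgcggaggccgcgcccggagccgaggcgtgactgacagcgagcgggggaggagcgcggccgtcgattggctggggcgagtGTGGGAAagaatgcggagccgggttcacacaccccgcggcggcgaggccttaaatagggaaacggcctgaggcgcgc
NOTCH3: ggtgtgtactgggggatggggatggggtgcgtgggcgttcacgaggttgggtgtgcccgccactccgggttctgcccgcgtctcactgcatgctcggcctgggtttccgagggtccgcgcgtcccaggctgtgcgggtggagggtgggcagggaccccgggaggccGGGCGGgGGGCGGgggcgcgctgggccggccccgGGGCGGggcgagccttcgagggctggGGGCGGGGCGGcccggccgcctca
Both strands were searched. HES1 has GTGGGAA from 85 to 79 bases before the start and a further TGGGAA from 70 to 65 bases before it. HES4 has GTGGGAA from 77 to 71 bases before its RefSeq start. The HES4 stretch, from 1000098, overlaps the gene span given below (998962 to 1000172), so the RefSeq start lies inside that span. The longer motif holds the shorter one. The longer motif stood in 2 of the 8 members with an entry, HES1 and HES4, and in 5.43% of 35116 promoters of the same length, while the shorter one stood in the same 2 of 8 members and in 20.8% of all promoters. GGGCGG was found in 7 of the 8 members and in 42.6% of all promoters, and in NOTCH3 it occurs at 5 places between 84 and 14 bases before the start, the last 2 of them overlapping. The TATA motif TATAAA was found in NRARP alone among the 8 members and in 10.7% of all promoters. These are matches of letters and were not tested as binding sites in these cells.

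HES1 (ENSG00000114315, chromosome 3 from 194136148 to 194138732, plus strand) had 34.0, 33.6 and 32.9 CPM untreated and 47.0, 45.0 and 46.7 CPM after Y-320. The replicates of each group were close, and the groups were well apart. Its log2 fold change was 0.46 (SE 0.037, adjusted p = 2.87e-06), a 1.38-fold higher level that ranged from 0.45 to 0.49 on the log2 scale with each library left out. HES4 (ENSG00000188290, chromosome 1 from 998962 to 1000172, minus strand), a close relative of HES1 in humans, had 12.5, 12.3 and 12.5 CPM untreated and 14.1, 16.6 and 18.6 CPM after Y-320. The untreated libraries were nearly equal and the treated ones were spread out, all above them. The log2 fold change of HES4 was 0.40 (SE 0.094, adjusted p = 0.00462), from 0.30 to 0.50 with each library left out. Per kilobase of transcript, HES1 was 1.51 ± 0.028 times as abundant as HES4 in untreated cells and 1.599 ± 0.24 times after Y-320 (SD, n = 3 each). This ratio did not differ beyond its spread (two-sided exact permutation test, p = 0.8 before and after adjustment over 2 ratios).

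HEY1 and NRARP were scarce. HEY1 (ENSG00000164683, chromosome 8 from 79762371 to 79767857, minus strand), a repressor related to HES1, had 12, 5 and 5 counts in untreated cells against 13, 19 and 20 in treated cells. The highest untreated library and the lowest treated library were nearly equal, at 0.544 and 0.569 CPM. The log2 fold change was 1.19 (SE 0.40, adjusted p = 0.0294), the largest estimate and the widest interval among the members. The call did not hold without untreated replicate 2 (1.01, adjusted p = 0.106), without untreated replicate 3 (0.97, adjusted p = 0.109), without Y-320 replicate 2 (1.11, adjusted p = 0.0916) or without Y-320 replicate 3 (1.08, adjusted p = 0.101). DESeq2 did not call it either (1.21, adjusted p = 0.0956). NRARP (ENSG00000198435, chromosome 9 from 137299631 to 137302271, minus strand), a small ankyrin repeat protein that Notch induces and that restrains it, had 36, 25 and 31 counts in untreated cells against 34, 30 and 36 in treated cells. Its groups overlapped, with a log2 fold change of 0.08 (SE 0.21, adjusted p = 0.775) and a 95% interval from -0.39 to 0.55. A change in NRARP as large as that of HES1 lies inside this interval, so these counts do not exclude it.

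To compare levels between genes, normalized CPM was divided by the length of the MANE Select transcript of each gene in kilobases. In untreated cells the order of levels was HES1 (21.3), NOTCH2 (16.9), HES4 (14.1), JAG2 (10.99), NOTCH3 (10.5), JAG1 (2.45), NOTCH1 (2.10), NRARP (0.534), HEY1 (0.153) and DLL1 (0.105 CPM per kilobase). The libraries overlapped for the neighbours JAG2 and NOTCH3 and for HEY1 and DLL1. Here and below DLL1 is given from its named row alone, without the second row of the same values. With that row its level would be higher, so its place below HEY1 in untreated cells is uncertain. With Y-320 the order was HES1 (29.4), NOTCH3 (21.3), HES4 (18.6), NOTCH2 (15.9), JAG2 (12.8), JAG1 (3.70), NOTCH1 (2.45), NRARP (0.566), HEY1 (0.355) and DLL1 (0.0552 CPM per kilobase). Here HES4 and NOTCH2 overlapped. NOTCH3 thus stood below NOTCH2 and HES4 in untreated cells and above both after Y-320, below HES1 alone.

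**Figure D3:**
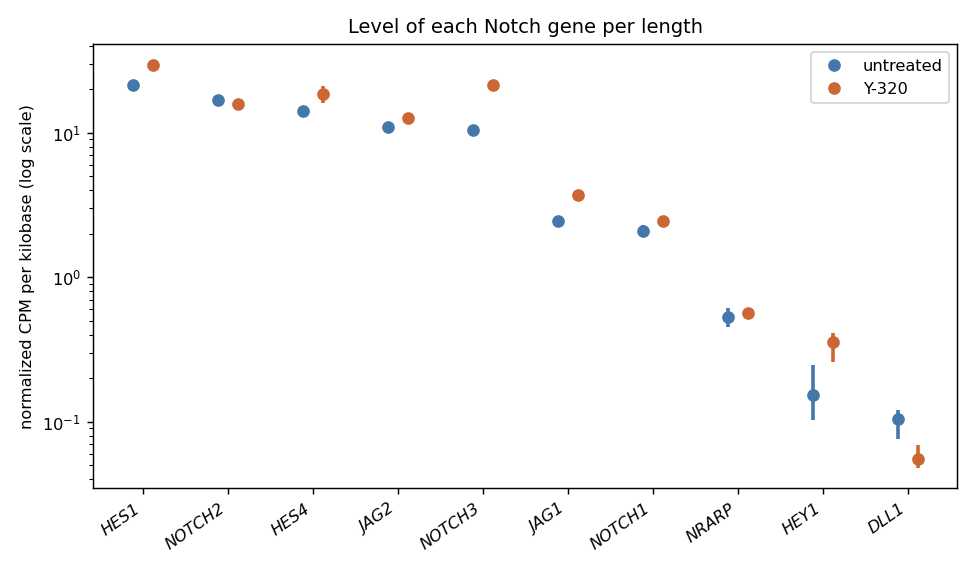
Normalized CPM per kilobase (log scale) of the 10 Notch genes, ordered by their untreated level; points are group means and vertical lines span the 3 libraries. NOTCH3 shows the largest step among the 5 abundant genes, from 10.5 to 21.3 CPM per kilobase.

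The balance of receptors shifted. As a share of the summed counts per kilobase of NOTCH1, NOTCH2 and NOTCH3, NOTCH3 made up 37.1%, 35.9% and 33.9% in the untreated libraries and 55.4%, 52.9% and 52.8% after Y-320. Its mean share was 35.6% ± 1.63 untreated and 53.7% ± 1.46 after Y-320 (SD, n = 3 each), a difference of 18.1 percentage points. The share of NOTCH2 was 57.3% ± 1.22 untreated and 40.1% ± 1.49 after Y-320, so NOTCH3 in place of NOTCH2 was the most abundant receptor per kilobase in every treated library. This order rests on the division by length, since in CPM NOTCH2 was above NOTCH3 in Y-320 replicate 2 (188 against 185) and replicate 3 (191 against 186). NOTCH1 held 7.11% ± 0.50 and 6.18% ± 0.14. The summed level of the 3 receptors was 29.5 ± 0.45 CPM per kilobase untreated and 39.6 ± 1.38 after Y-320. Among the ligands, JAG2 held 81.1% ± 1.01 untreated and 77.3% ± 0.72 after Y-320, and JAG1 held 18.1% ± 1.09 and 22.4% ± 0.79. DLL1, from its named row alone, held 0.775% ± 0.17 and 0.335% ± 0.079. The groups did not overlap for any of these 6 shares (two-sided exact permutation test, p = 0.1 before and after adjustment, the smallest that 3 libraries against 3 allow). The shares within a family sum to 100%, so they are not independent of each other. With the second row of the same values the DLL1 share would be larger, and those of JAG1 and JAG2 smaller.

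**Figure D4:**
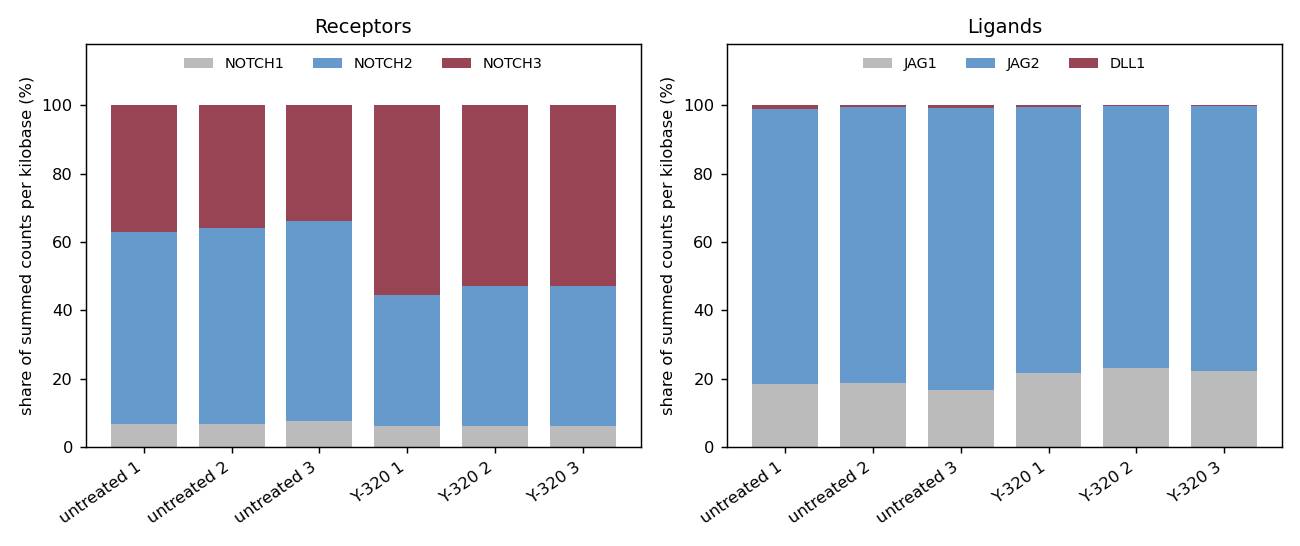
Share of each gene (vertical axis, percent) in the summed counts per kilobase of the 3 receptors (left) and 3 ligands (right), with a stacked bar for each library. NOTCH3 grows from 33.9% to 37.1% in untreated libraries to 52.8% to 55.4% after Y-320. DLL1, from its named row alone, stays under 1% in all libraries.

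NOTCH3 is also known from mural cells of blood vessels, and PDGFRB marks those cells and fibroblasts. The fibroblast markers were measurable in these libraries. Of COL1A1, COL1A2, COL3A1 and PDGFRB, 3 of 4 were lower past the threshold (COL3A1 was at -1.18, adjusted p = 0.111), with a log2 fold change of -1.82 (edgeR adjusted p = 2.18e-06) for PDGFRB, and their summed level was 201 to 238 CPM untreated and 111 to 130 CPM after Y-320. Of the endothelial markers PECAM1 was higher (1.22, adjusted p = 1.10e-04) and CDH5 lower (-1.29, adjusted p = 5.91e-07), TIE1 was at 0.000212 (adjusted p = 0.999), KDR had at most 12 counts, and the summed level was 26.2 to 28.3 CPM untreated and 23.5 to 27.9 CPM after Y-320. The basal epithelial markers KRT5, KRT14 and TP63 were all lower, from a summed 395 to 408 CPM to 70.8 to 81.2 CPM. Of the leukocyte markers CD68 was higher (0.93, adjusted p = 6.63e-08), with 81.0% of its 31-base words in another gene, PTPRC was at -0.63 (adjusted p = 0.104), CD3E had at most 2 counts, and the summed level was 36.2 to 38.2 CPM untreated and 66.5 to 73.1 CPM after Y-320. The breast receptor genes ESR1 (-0.03, adjusted p = 0.790) and ERBB2 (-0.31, adjusted p = 3.76e-05) were detected, while PGR was at 0 in all libraries but Y-320 replicate 3, and these 3 summed to 197 to 208 CPM untreated and 158 to 170.1 CPM after Y-320. The part of such cells or of a changed epithelial state in the Notch values was not tested, and in bulk RNA fewer cells of a type and less RNA per cell cannot be told apart.

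The rest of the pathway did not move in a single direction. Across 7 further lists of Notch pathway genes, 75 genes were tested, and 19 were higher and 26 lower past the threshold. This is 60% of them, against 51.5% of all genes tested, and their median log2 fold change was -0.02. Other receptors and ligands were mostly scarce, and 4 of the 7 with a row were tested. Of these 4, 2 were higher and 0 lower, or 50% called, near the 51.5% of all genes tested. DNER, a ligand-like membrane protein, rose from 7.16 to 7.72 CPM untreated to 12.1 to 12.2 CPM after Y-320 (log2 fold change 0.72, SE 0.072, adjusted p = 1.44e-05). DLK2, a non-canonical ligand, was the most abundant of the list per kilobase in untreated cells (2.66 CPM per kilobase). After Y-320 DNER was above it (3.73 against 3.63 CPM per kilobase). DLK2 rose by 0.45 (adjusted p = 0.0155). This call did not hold without untreated replicate 2 (0.41, adjusted p = 0.0524) or without Y-320 replicate 2 (0.33, adjusted p = 0.0622). DLL3 was at -0.11 (adjusted p = 0.656), beside NOTCH2NLA given above. NOTCH4, DLL4 and DLK1 had at most 8 counts in any library and were not tested, and NOTCH2NLB, NOTCH2NLC and NOTCH2NLR were not analysed here.

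Of the other HES and HEY genes and their relatives, 5 of 10 were tested. The related repressors BHLHE40 and BHLHE41 went in opposite directions. BHLHE40 rose from 154 to 162 CPM to 315 to 321 CPM (log2 fold change 1.01, SE 0.026, adjusted p = 1.57e-09) and was the most abundant of the list per kilobase. BHLHE41 fell from 172 to 185 CPM to 110.3 to 127 CPM (log2 fold change -0.60, SE 0.050, adjusted p = 3.60e-06). HES6 was at 0.08 (adjusted p = 0.547), HES2 at 0.18 (adjusted p = 0.528) and HEYL at -0.17 (adjusted p = 0.278). None of these HES and HEY genes passed the threshold, and the calls of this list came from BHLHE40 and BHLHE41. HES3, HES5, HES7, HEY2 and HELT had at most 7 counts in any library. The HES and HEY genes were thus represented in these cells mainly by HES1, HES4 and HES6, beside the related BHLHE40 and BHLHE41.

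The enzymes of receptor cleavage went in both directions. ADAM17 and ADAM10 are the surface proteases able to make the first cut. ADAM17 rose from 125 to 132 CPM to 184 to 191 CPM (log2 fold change 0.54, SE 0.030, adjusted p = 2.16e-07), and ADAM10, the protease mainly used after ligand binding, fell from 258 to 262 CPM to 199 to 211 CPM (log2 fold change -0.33, SE 0.027, adjusted p = 3.56e-06). Per kilobase ADAM17 was 1.27 ± 0.033 times as abundant as ADAM10 untreated and 2.31 ± 0.029 times after Y-320 (SD, n = 3 each, two-sided exact permutation test p = 0.1, adjusted over 2 ratios p = 0.2), a ratio chosen after its values were seen. In the γ-secretase complex, PSENEN (0.45, adjusted p = 3.38e-05) rose, and PSEN2 (-0.53, adjusted p = 1.67e-04) and NCSTN (-0.15, adjusted p = 0.00373) fell, while APH1A, the most abundant per kilobase, was at 0.04 (adjusted p = 0.214). APH1B was at -0.16 (adjusted p = 0.234, and past the threshold at -0.28 without untreated replicate 1, adjusted p = 0.0167), and FURIN, which matures the receptors, at -0.02 (adjusted p = 0.532). Of the 31-base words of PSEN2 and PSENEN, 40.5% and 47.5% occur in another gene, and 14.6% of those of ADAM17, so their reads are uncertain.

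In the nucleus RBPJ, the DNA-binding partner of the receptor, rose, and its co-regulators went in both directions. RBPJ had 42.3, 44.7 and 44.3 CPM untreated and 52.6, 54.6 and 53.4 CPM after Y-320. Its log2 fold change was 0.29 (SE 0.037, adjusted p = 7.87e-05). Of 19 tested genes in this list, 4 were higher and 9 lower, or 68.4% called against 51.5% of all genes tested, and TLE4 alone had an absolute log2 fold change of at least 0.5. The other 3 higher ones were the co-repressors CIR1 (0.24, adjusted p = 0.00132), CTBP2 (0.14, adjusted p = 0.00459, 38.2% of its words shared) and CTBP1 (0.10, adjusted p = 0.0215). The call of CTBP1 did not hold in 4 of the 6 fits without a library (untreated replicate 1 or 3, Y-320 replicate 1 or 3), with adjusted p from 0.0502 to 0.0818, or with upper-quartile scaling (0.07, adjusted p = 0.0848). The largest decrease was that of TLE4, a Groucho-type co-repressor, from 22.7 to 23.2 CPM to 11.2 to 11.7 CPM (log2 fold change -1.001, SE 0.052, adjusted p = 1.19e-07). The acetyltransferase KAT2A (-0.34, adjusted p = 1.65e-05), the co-activator MAML2 (-0.335, adjusted p = 1.34e-05), the co-repressor TLE2 (-0.32, adjusted p = 0.00120) and the deacetylase HDAC1, the most abundant per kilobase (-0.31, adjusted p = 7.03e-06), also fell. KDM5A, another of the 9 lower genes (-0.09, adjusted p = 0.0203), lost its call in some fits. These were without untreated replicate 3, Y-320 replicate 2 or Y-320 replicate 3, with adjusted p from 0.0512 to 0.0795. The row of MAML1, another Mastermind gene, held at most 3.54 counts in any library and was not tested.

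Of 8 genes that modify the receptor with sugars, 4 were lower and 1 higher, or 62.5% called, against 25.4% lower, 26.2% higher and 51.5% in either direction among all genes tested. LFNG, a Fringe enzyme that alters which ligands a receptor prefers, fell from 25.8 to 27.8 CPM to 16.9 to 18.1 CPM (log2 fold change -0.63, SE 0.052, adjusted p = 3.36e-06). RFNG, of the same family and with 17.8% of its words in another gene, rose by 0.32 (adjusted p = 0.00335), and MFNG was at -0.29 (adjusted p = 0.154). POGLUT1 (-0.29, adjusted p = 0.00779), XXYLT1 (-0.21, adjusted p = 0.00339) and POFUT1, the most abundant per kilobase (-0.08, adjusted p = 0.0452), fell. The call of POFUT1 did not hold in 4 of the 6 fits without a library (untreated replicate 1 or 3, Y-320 replicate 2 or 3), with adjusted p from 0.0946 to 0.173. That call was also lost without the filter on low counts (adjusted p = 0.0721) and with scaling by library size only (adjusted p = 0.0945). GXYLT1 was at -0.08 (adjusted p = 0.156) and GXYLT2 at 0.43 (adjusted p = 0.319). Among 16 genes of endocytosis and ubiquitin control, 4 were higher and 4 lower, or 50% called, near the 51.5% of all genes tested. The ligand-activating ubiquitin ligase MIB2 rose by 0.64 (SE 0.045, adjusted p = 1.01e-06), and its relative MIB1 fell slightly (-0.17, adjusted p = 9.60e-04). DTX4 of the Deltex family fell by 0.62 (adjusted p = 8.50e-07). The others past the threshold were ITCH (0.24, adjusted p = 3.29e-05, 27.4% of its words shared), NEURL1B (0.12, adjusted p = 0.00587), NUMB, the most abundant per kilobase (0.09, adjusted p = 0.0319), NEDD4 (-0.19, adjusted p = 0.00303) and DTX3L (-0.14, adjusted p = 0.00305). The call of NUMB did not hold without untreated replicate 1 (0.07, adjusted p = 0.109), untreated replicate 2 (0.09, adjusted p = 0.0812) or Y-320 replicate 2 (0.08, adjusted p = 0.119). Upper-quartile scaling also lost the NUMB call (0.07, adjusted p = 0.123).

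**Figure D5:**
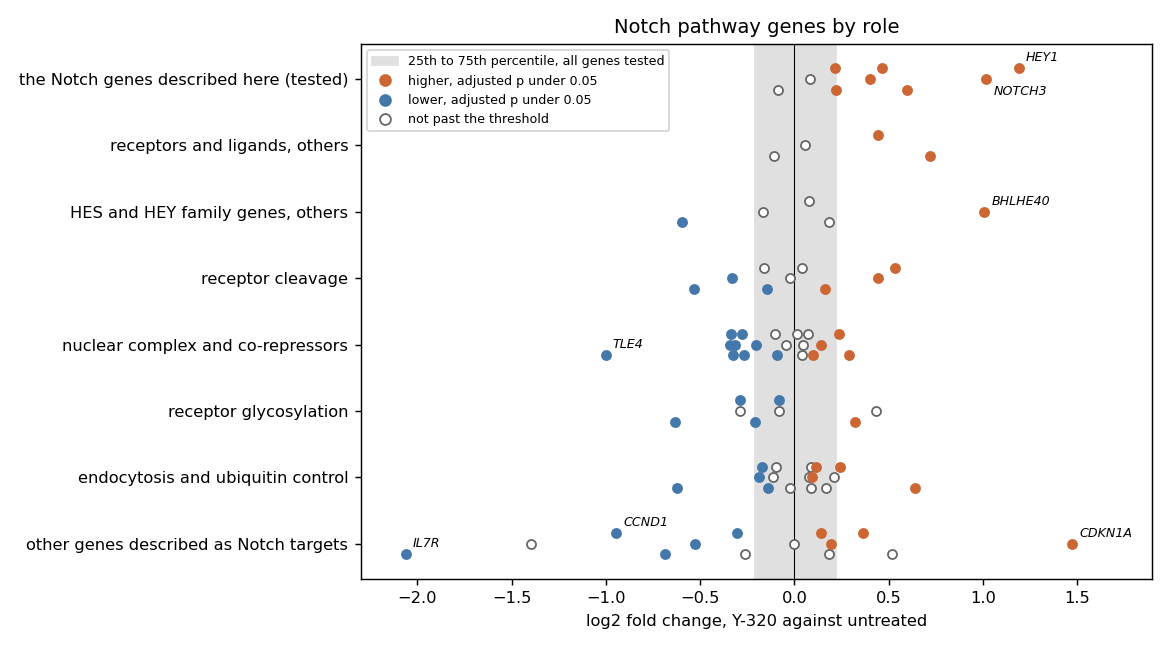
Log2 fold change (horizontal axis, Y-320 against untreated) of each tested gene, grouped by its role in the Notch pathway; orange and blue points passed an adjusted p of 0.05 in either direction, open points did not, and the grey band spans the middle of all genes tested. The top row lies mostly to the right. The other receptors and ligands hold 2 higher and 0 lower of 4 tested (50% called, beside 51.5% of all genes tested), and each further group holds both.

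Genes described as Notch targets in other cell types went in both directions, with 4 higher and 5 lower of 14 tested, or 64.3% called against 51.5% of all genes tested. CDKN1A, which encodes the cell cycle inhibitor p21, rose from 36.6 to 41.5 CPM to 105 to 114 CPM (log2 fold change 1.47, SE 0.049, adjusted p = 5.27e-09). CCND1, the cyclin D1 gene and the most abundant of the list per kilobase, fell from 488 to 520 CPM to 251 to 277 CPM (log2 fold change -0.95, SE 0.039, adjusted p = 2.54e-08). IL7R, a target known from T cells, fell from 10.3 to 11.8 CPM to 2.14 to 3.11 CPM (log2 fold change -2.06, SE 0.13, adjusted p = 4.65e-07). The luminal transcription factor gene GATA3 (-0.69, adjusted p = 1.09e-06), the growth factor receptor gene IGF1R (-0.53, adjusted p = 4.13e-06) and SNAI2 (-0.31, adjusted p = 2.44e-04) were also lower. EPHB4 (0.37, adjusted p = 2.38e-06), MYC (0.20, adjusted p = 0.00227) and SOX9 (0.14, adjusted p = 0.0470) were the other higher genes. SOX9 lost its call with DESeq2, limma-voom and upper-quartile scaling, which left 3 higher genes, and in 5 of the 6 fits without a library, all but that without untreated replicate 3, with adjusted p from 0.0551 to 0.170. These genes answer to many other signals, and their changes are given beside those of HES1 and HES4 without a test of a common source.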

How the data were processed

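RNA-seq of HDQ-P1 cells was analysed in 3 untreated libraries and 3 treated with Y-320 (1 μM, 48 h). The authors deposited estimated counts per Ensembl gene, not normalized, which the submitters' processing notes credit to kallisto 0.46.1 on hg38; the Ensembl release and strand setting are not given in the sources used here. kallisto divides reads that match several transcripts, so 48.3% to 48.7% of values were not whole, and copies of a gene can share reads. Counts were rounded, filtered with filterByExpr (minimum 10 counts, 15 in total), scaled by TMM and fitted without a block in edgeR 4.0.16 (R 4.3.3), with Benjamini-Hochberg adjustment over 16580 genes. The paper combines several unnamed pipelines, which could not be repeated. The fit was tested on simulated data. Positions, lengths and 31-base words came from GENCODE 44 on hg38, and promoters from RefSeq on GRCh38.p14. limma 3.58.1 (voom) and DESeq2 1.42.0 served as other tests, and other filters, scalings and left-out libraries as alternatives. Plots used Python 3.11.15 and matplotlib 3.10.9.

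The 10 genes and the pathway lists were chosen with earlier results of these data known. The text names all 10, and from each list the 4 largest changes past the threshold at a mean of at least 1 CPM, the most abundant gene per kilobase, any gene of at least 1 CPM that no fit tested, and every gene behind a count of 5 or fewer. Relative to Poisson noise, chi-square per degree of freedom was 2.02 to 2.98 between libraries of a group and 40.2 to 42.1 between groups. The labels give no sequencing batch. Some items of the lists are not reported here.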

Additional observations from a re-analysis of the deposited data

How the results depend on the processing

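The log2 fold changes of NOTCH3, JAG1, JAG2, HES1 and HES4 kept their direction under every alternative run and stayed past an adjusted p of 0.05 in each fit. The number of the 10 Notch genes past the threshold was 7 in the fit reported, 6 with DESeq2 and with at least 10 counts in every library (which removes HEY1), 5 at an adjusted p under 0.01, and 5 to 7 with each library left out. With an absolute log2 fold change of at least 0.5 also required, it was 3. Under that requirement the counts became 1 for other receptors and ligands, 2 for receptor cleavage, 1 for the nuclear complex, 1 for glycosylation, 2 for endocytosis and ubiquitin control, and 5 for other described targets. Other receptors and ligands had 1 gene at an adjusted p under 0.01, and 1 to 2 with each library left out. Over all genes, DESeq2 called 3835 higher and 3697 lower of 17927. The fit with at least 10 counts in every library called 4272 higher and 4187 lower of 15496. With each library left out, 3917 to 4047 genes were higher and 3748 to 3925 lower, of 16840 to 16892. The share of all genes at the stricter adjusted p or with the fold change requirement is not given here. With each library left out NRARP ranged from -0.0217 to 0.20, lower without untreated replicate 2, and NOTCH2NLA from -0.0451 to 0.16, lower without untreated replicate 1 (-0.00234) or Y-320 replicate 2; neither passed in any fit.

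Same-numbered libraries did not deviate together (correlations of -0.00236, 0.0155 and 0.00222 across genes), so the numbers were not taken as pairs. With the replicate block, 7 of the 10 Notch genes were past the threshold, 6 higher and 1 lower, since HEY1 lost its call (1.20, adjusted p = 0.0556) and NOTCH2 gained one (-0.09, adjusted p = 0.0365). Over all 16580 genes the block fit called 4285 higher and 4159 lower. The rise in the NOTCH3 share was 17.4 percentage points without division by length and 18.2 with the length of all exons, the latter chosen after seeing the data. With that length JAG1 and NOTCH1 changed places in untreated cells, as did HEY1 and DLL1, and JAG2 and NOTCH2 did so after Y-320. At this depth HEY1, DLL1 and NRARP rest on at most 36 counts per library, and the causes of the lost calls were not tested.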
